A study of Macaca mulatta with 25 samples.

Results

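Blastocysts from rhesus macaque females that had received testosterone and a Western-style diet together were compared with blastocysts from females that had received only 1 of them. The members were fixed by the sample labels: the 2 combined-treatment libraries (TWSD 2 and TWSD 3) on one side, and the 10 testosterone (T 1 and T 3 to 11) and 8 diet (WSD 1, 3, 4 and 6 to 10) libraries, pooled, on the other. These are 20 of the 25 libraries of the series, and no control library entered any value. The T females carried testosterone implants meant to hold the hormone at 3 to 5 times its normal level in blood and ate a chow with 15% fat, 59% carbohydrate and 26% protein. The WSD females ate an obesogenic diet with 36% fat, 46% carbohydrate and 18% protein, and no implant is described for them. The TWSD females had both the implants and this diet. Treatment began in 10 females per group at about 2.5 years of age, before puberty, and ran for 5 to 6 years. Illness, endometriosis above all, left 7 T, 6 WSD and 3 TWSD females that could be stimulated to yield eggs, so the TWSD embryos come from at most 3 mothers. Eggs of every group met fresh sperm from 4 males in a dish, and the embryos grew for at most 8 days, and the outer coat (zona pellucida) was removed before freezing. The labels do not name the mother or father of a library, nor say that 1 library is 1 embryo, so p-values measure only the spread between these libraries.

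A blastocyst holds 3 kinds of cells: the trophectoderm, an outer layer that founds the placenta, the epiblast, which founds the body, and the primitive endoderm, which lines the cavity and lays down basement membrane. An embryo at this stage has replaced most of the RNA it received from the egg with its own, divides fast and depends on mitochondria and on protein synthesis and turnover. Damage to DNA in such cells switches on genes that stop division or prepare cell death. Androgens and an energy-rich diet are both known to act on the ovary in which the egg matures. Bulk libraries cannot tell fewer cells of a type from less RNA per cell, which applies to each lineage result below.

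The 2 combined-treatment libraries lay at different places against the 18: TWSD 2 outside their range at 45.5% of genes, TWSD 3 at 8.63%. Levels are CPM, that is, counts scaled to library size with TMM factors. The genes tested were the 13249 that reached 1 CPM in 5 or more of the 20 libraries. TWSD 2 lay above all 18 single-treatment libraries at 2970 genes (22.4%) and below all of them at 3062 (23.1%). For TWSD 3 the counts were 655 (4.94%) above and 489 (3.69%) below. Each of the 20 libraries can be ranked in the same way: TWSD 2 held the highest or lowest of the 20 values at 5941 genes (44.8%), TWSD 3 at 818 (6.17%), and the 18 at 362 to 2673, with a median of 881 and the top value in T 1. With TWSD 2 set aside, TWSD 3 was the extreme of the other 19 at 1144 genes (8.63%), beside 576 to 3089 for single-treatment libraries (median 1113). TWSD 3 was thus the extreme about as often as the median single-treatment library. Both libraries lay above the 18 at 198 genes (1.49%) and both below at 195 (1.47%). They lay on opposite sides of the 18 at 236 genes, and inside the range together at 6702 (50.6%).

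TWSD 2 lay inside the range of the 18 in depth and outside it in several other library measures. It held 20381869 counts and TWSD 3 26710010, inside the 14219054 to 35544542 of the 18. TWSD 2 had 15543 genes with at least 1 count and TWSD 3 had 15419, both inside the range of 14247 to 21793 and under the median of 18039.5. Only 9491 genes reached 10 counts in TWSD 2, under the lowest of the 18 (11566), while TWSD 3 had 12737. TWSD 2 also had the lowest TMM factor, 0.752, against 0.939 to 1.09 in the 18 and 1.01 in TWSD 3, and 1729 of the tested genes had no count in it, against 133 to 1255 in the 18 and 851 in TWSD 3. Across genes, the log2 CPM of TWSD 2 correlated with the single-treatment libraries at 0.763 on average and that of TWSD 3 at 0.859, where each of the 18 correlated with the rest of them at 0.791 (T 1) to 0.882. The 2 combined libraries correlated with each other at 0.758. Over all 190 ways to pick 2 of the 20 libraries, a two-sided permutation test of the mean correlation gave p = 0.0474 (0.184 after Benjamini-Hochberg adjustment over 5 measures), and 0.0053 is the smallest p this design allows. The correlations were taken with the labelled 18 and were not recomputed for each split. For this measure the p-value is therefore not exact and is a description only. Genes detected gave p = 0.126 (adjusted 0.211) and total counts p = 0.611 (adjusted 0.647). T 1, a single-treatment library, stands apart within the 18 by its low correlation and its number of extreme values, and its values set many of the ranges given below. What part these differences in library make-up have in the gene results was not tested, and each gene result is given for both libraries.

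**Figure D1:**
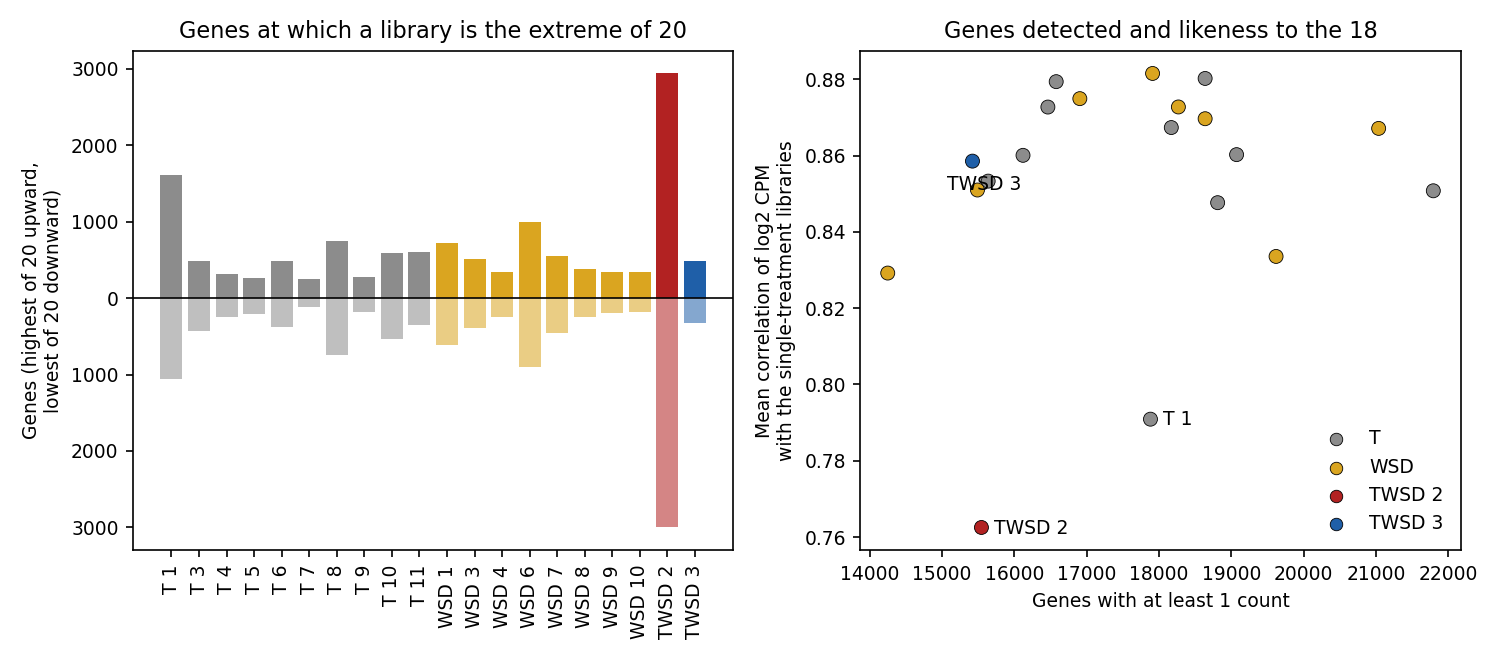
Left: for each of the 20 libraries (x axis), the number of tested genes at which it holds the single highest value (bars upward) or lowest value (bars downward, paler), in TMM-scaled CPM. Right: genes with at least 1 count (x axis) against the mean correlation of log2 CPM with the single-treatment libraries (y axis), 1 point a library. TWSD 2 is the extreme at 5941 genes and lies lowest in correlation at 0.763, whereas TWSD 3, at 818 genes and 0.859, sits among the T and WSD libraries.

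Against the 18 pooled libraries, 486 genes were higher (3.67% of those tested) and 121 lower (0.913%) with the combined treatment, 607 in all (4.58%), by the quasi-likelihood test of edgeR at an adjusted p of 0.05 or less (Benjamini-Hochberg). On library totals without scaling the counts were 27 and 23, so that 54.0% of the calls were higher in place of 80.1%. The balance turned with DESeq2's Wald test, which called 616 higher and 874 lower, 41.3% of them higher. The median log2 change of all tested genes was -0.16 with TMM factors, -0.19 when scaled by the DESeq2 size factors and -0.31 on library totals. Higher and lower calls differed in how they rested on the 2 libraries. TWSD 2 lay above all 18 at 486 of the 486 higher genes and TWSD 3 at 79, with 406 inside the range and 116 at or under the median of the 18. At 391 of them TWSD 2 was at least 2 times TWSD 3. Among the 121 lower genes TWSD 2 lay below all 18 at 94, TWSD 3 at 92 and both at 87, and both libraries were under the median of the 18 at 121. No read was counted in either library at 31 of them. Without TWSD 2, 0 genes were higher (0%) and 1 was lower (0.00756%) in edgeR, with 102 and 468 at an unadjusted p under 0.05, under the assumption that TWSD 3 alone varies like the 18. The median log2 change of the 486 then fell to 0.16, with 347 still above 0, and that of the 121 was -5.93, with 121 under 0. Without TWSD 3, 1715 were higher (13%) and 2538 lower (19.3%). Without T 1 the counts were 487 and 140. limma voom, which weights libraries by quality and gave TWSD 2 a weight of 0.260 and TWSD 3 0.380, called 0 in either direction, with 179 higher and 18 lower at an unadjusted p under 0.05.

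The higher genes were abundant and the lower genes scarce in single-treatment embryos. The median of the 18 had a median of 108 CPM over the 486 higher genes and 6.197 CPM over the 121 lower ones, against 19.8 CPM over all tested genes. The difference went the same way for the position of TWSD 2 alone: 55.7 CPM where it lay above the 18 and 20.99 CPM where it lay below. For TWSD 3 the values were 23.1 and 14.02 CPM. In the shallowest library 1 CPM is 14.2 counts, so the lower genes carry a larger counting error than the higher ones.

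**Figure D2:**
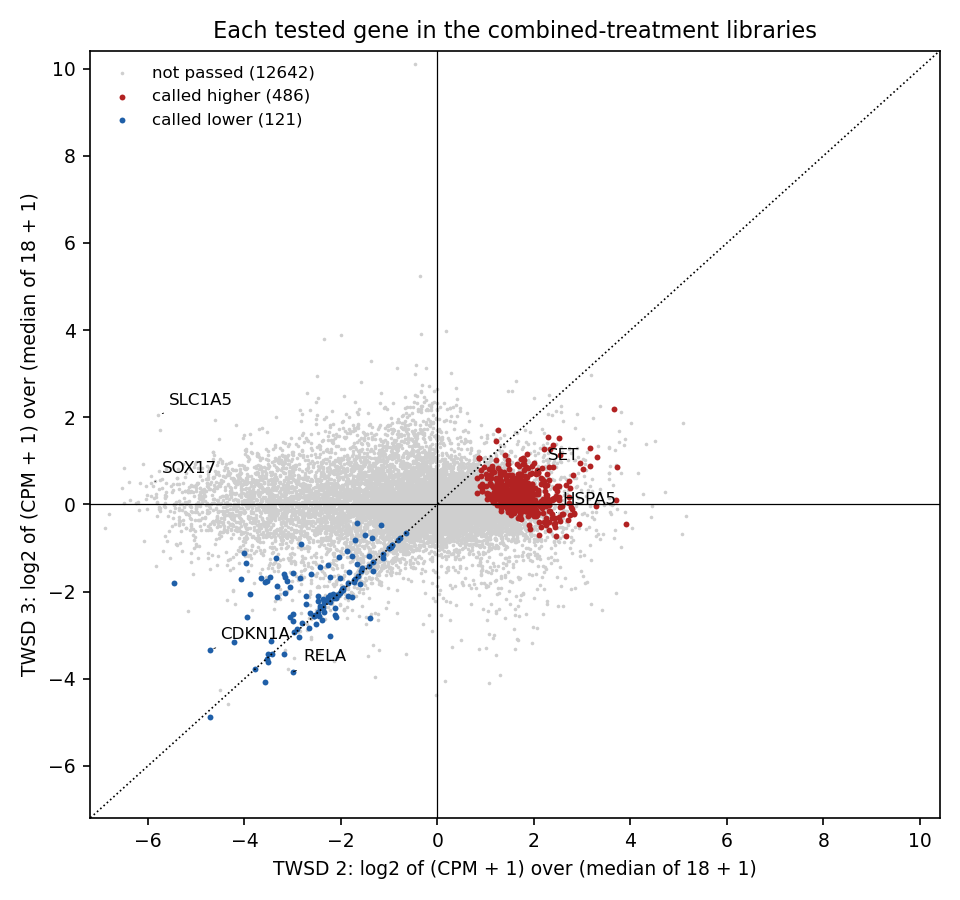
Each tested gene by its level in TWSD 2 (x axis) and in TWSD 3 (y axis), both as log2 of (CPM + 1) over (median of the 18 + 1). The dotted line marks equal values. The 486 genes called higher (red) stretch to the right along the horizontal axis, with TWSD 3 near the median of the 18, while the 121 called lower (blue) lie in the lower left, under the median in both libraries.

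Genes that fell in both combined-treatment libraries were led by RELA (ENSMMUG00000007418), which encodes the p65 subunit of the transcription factor NF-kB. RELA stood at 2.48 CPM in TWSD 2 and 0.924 CPM in TWSD 3, against 12.5 to 39.3 CPM in the 18, median 26.6. Both libraries lay far below the lowest of the 18, and the log2 change was -4.01 ± 0.52 (SE; adjusted p = 0.000865). RELA was also the 1 gene that passed without TWSD 2 (log2 change -4.89 ± 0.68, adjusted p = 0.00407). Of the alternatives run, 1 (limma voom) lost the call. Of the 18 tested genes of the inflammation and NF-kB list, RELA passed and 17 did not, and their median log2 change was -0.53, with 3 genes at 0 in both libraries. NFKBIA, the inhibitor that holds NF-kB in the cytoplasm, lay at 62.8 CPM in TWSD 2, inside the range of the 18, and at 22.7 CPM in TWSD 3, below their lowest value of 26.5 CPM. The interleukin 1 receptor gene IL1R1, no member of that list, had no read in TWSD 2 and 0.0369 CPM in TWSD 3, where the 18 held 0.361 to 45.3 CPM, median 4.198, a ratio of 299 with a 95% counting interval of 53.6 to 11799 (adjusted p = 0.0295).

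Of the 12 lower genes with the smallest p, 11 lay below all 18 in both libraries and 7 had no read in either. MOSPD2, a protein that tethers the endoplasmic reticulum to other organelles, was at 0 in both combined libraries and at 3.31 to 22.7 CPM, median 9.71 in the 18, at least 161-fold lower when 3 counts over the 2 libraries are taken as the floor (adjusted p = 0.000865). In the same way, the zinc finger gene ZNF300 was at 0 against 1.33 to 25.5 CPM, median 10.6, at least 145-fold lower. The chromodomain gene CDYL2 was at 0 against 0.6603 to 11.5 CPM, median 4.17, at least 71.1-fold lower. TCEANC, AKAP7, an anchor of protein kinase A, and ANKRD52 were at 0 in both as well, with lower bounds of 71.9, 47.4 and 54.5-fold. PLPP6, a lipid phosphatase, was the exception in position: it was at 0 in both, but the 18 began at 0 too (0 to 19.7 CPM, median 12.7). ALDH1L1, an enzyme of folate metabolism, had 1 read in all, in TWSD 3, where the 18 held 0.801 to 18.97 CPM, median 6.83, a ratio of 315 with a 95% counting interval of 56.5 to 12435.

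The remaining leading genes kept a measurable level in both libraries, and 3 of them act on the actin skeleton or on traffic inside the cell. GAS7, linked to actin in growth-arrested cells, was at 0.326 CPM in TWSD 2 and 1.77 CPM in TWSD 3, against 5.28 to 66.5 CPM in the 18, median 23.6, a log2 change of -4.62 ± 0.93 (adjusted p = 0.0118). WIPF2, which binds the actin regulator WASP, was at 1.31 CPM in TWSD 2 and 4.14 CPM in TWSD 3, against 10.2 to 42.9 CPM in the 18, median 18.2, -2.92 ± 0.62 on the log2 scale. USP6NL, a RAB GTPase-activating protein, was at 11.9 CPM in TWSD 2 and 21.3 CPM in TWSD 3, against 28.9 to 64.5 CPM in the 18, median 46.1, -1.50 ± 0.33 on the log2 scale (adjusted p = 0.0166). In all 3 genes TWSD 2 was the lower of the pair. All 12 passed against T and against WSD taken separately, and without TWSD 2 their log2 changes ran from -11.02 to -1.16. Since the 12 were picked by the pooled test of these same libraries, neither result is separate support for them.

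**Figure D3:**
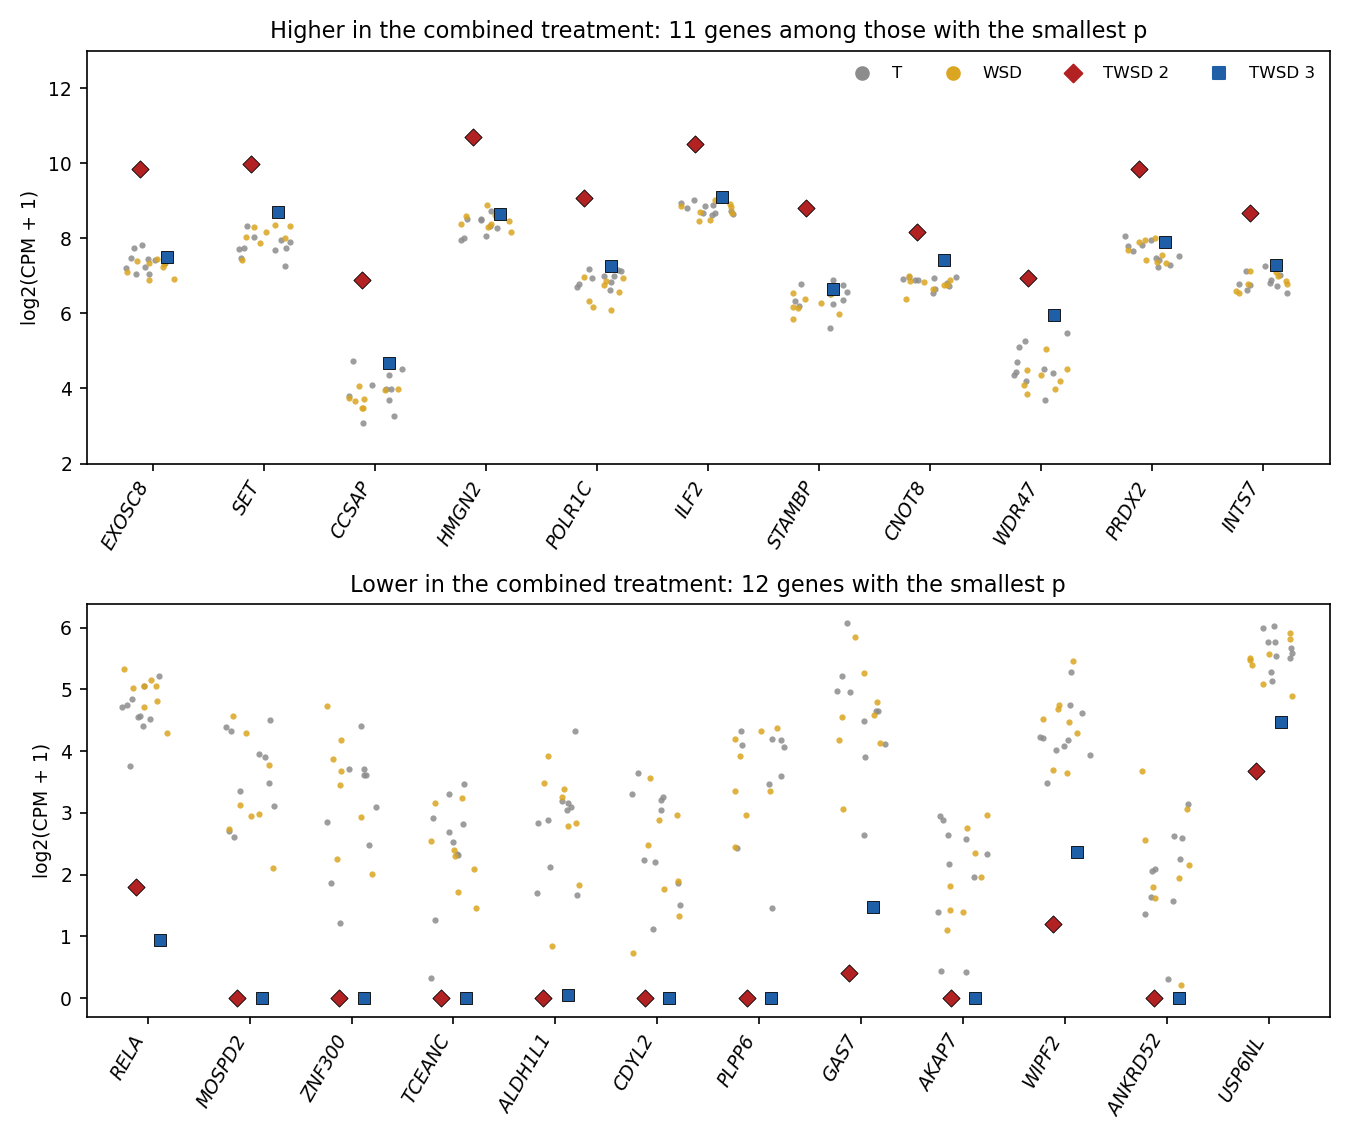
Levels as log2(CPM + 1) (y axis) of 11 higher genes among those with the smallest p (top) and of the 12 lower genes with the smallest p (bottom), 1 small point per T (grey) or WSD (yellow) library, TWSD 2 as a red diamond and TWSD 3 as a blue square. In the top panel TWSD 2 stands above every single-treatment library in 11 genes and TWSD 3 in 6, and in the bottom panel both lie below the 18 in all genes but PLPP6.

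CDKN1A and TNFRSF10B, which act in cell cycle arrest and as a death receptor, were called lower and lay below the 18 in both libraries. CDKN1A (ENSMMUG00000055964), the p21 inhibitor of cyclin-dependent kinases, stood at 0.392 CPM in TWSD 2 and 2.62 CPM in TWSD 3, against 8.43 to 125 CPM in the 18, median 35.6, with a log2 change of -5.10 ± 1.20 (adjusted p = 0.0195). The TRAIL receptor gene TNFRSF10B stood at 0.326 CPM in TWSD 2 and 0.111 CPM in TWSD 3, against 0.437 to 25.4 CPM in the 18, median 4.75, and passed at a log2 change of -5.08 ± 1.39 (adjusted p = 0.0381). Its neighbour in the receptor family, TNFRSF10A, was not in the list and stood at 0.587 CPM in TWSD 2 and 0.111 CPM in TWSD 3, against 4.39 to 76.2 CPM in the 18, median 17.8, -6.12 ± 1.35 on the log2 scale (adjusted p = 0.0177). The 2 receptors are related in sequence, so reads could be shared between them. The calls of CDKN1A and TNFRSF10B were lost on library totals, with limma voom and without TWSD 2. That of TNFRSF10B was lost without a filter on low counts and without TWSD 3 too. Without TWSD 2 and without TWSD 3, the log2 changes were -4.36 and -7.07 for CDKN1A and -6.00 and -4.48 for TNFRSF10B. Against WSD alone TNFRSF10B missed the threshold (edgeR adjusted p = 0.0607). PHLDA3, which restrains the kinase AKT, lay below the 18 in both libraries (0.914 and 0 CPM against 1.098 to 18.4 CPM, median 4.87) but did not pass (adjusted p = 0.106). AEN, an apoptotic nuclease, was inside the range in TWSD 2 (26.6 CPM) and below it in TWSD 3 (10.05 CPM against 20.3 to 133 CPM, median 56.7; adjusted p = 0.0964).

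Over the whole list of 28 tested cell cycle arrest and apoptosis genes, 1 was called higher and 2 lower, and 25 did not pass. Among all tested genes 3.67% were called higher and 0.913% lower. The median log2 change was -0.51, and -0.49 without TWSD 2, against -0.16 and -0.13 over all tested genes. TWSD 3 lay below the 18 at 4 of these genes, against 3.69% of all tested genes, and above at 0. TWSD 2 lay below at 13, against 23.1% of all tested genes. The pro-apoptotic genes BAX, BAK1, BBC3, BCL2L11 and APAF1 were below the 18 in TWSD 2 as well, and inside their range in TWSD 3.

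Among sugar transport and insulin signalling genes, SLC2A10, INSR and FOXO3 lay below the 18 in both libraries, and SLC2A10 passed. SLC2A10, a sugar transporter, had 3 reads in all, in TWSD 2 (0.196 CPM), and none in TWSD 3, where the 18 held 1.23 to 14.4 CPM, median 5.31. This is a ratio of 90.2 with a 95% counting interval of 30.9 to 437 (adjusted p = 0.0177). It was the 1 call among 28 transporters, where 4.58% of all tested genes were called. INSR, the insulin receptor, was at 0 CPM in TWSD 2 and 2.697 CPM in TWSD 3, against 6.82 to 23.3 CPM in the 18, median 10.8, and missed the threshold (adjusted p = 0.0544). FOXO3, a transcription factor held back by insulin signalling, was at 0.0653 CPM in TWSD 2 and 9.902 CPM in TWSD 3, against 12.4 to 61.9 CPM in the 18, median 23.7 (adjusted p = 0.129). Both lay below the lowest of the 18 in each library, by far in TWSD 2 and by less in TWSD 3. Of the 28 insulin and IGF genes, 0 passed, and the median log2 change was -0.32. TWSD 3 lay above the 18 at 2 of them, PIK3R1 and RPTOR, as many as it lay below, and at 3 transporters, SLC1A5, SLC16A1 and SLC1A1.

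Further genes below all 18 in both libraries are given next, those outside the lists having been chosen after their values were seen. ACACB, which makes malonyl-CoA at mitochondria, was at 0.261 CPM in TWSD 2 and 0.0739 CPM in TWSD 3, against 0.296 to 19.2 CPM in the 18, median 6.19 (adjusted p = 0.0606). VEGFA, the vascular growth factor, was at 0.261 and 0.111 CPM against 0.275 to 159.5 CPM, median 7.23, the highest value being in T 1 (adjusted p = 0.08996). PGF, its placental relative, was at 17.6 and 7.65 CPM against 18.2 to 1363 CPM, median 50.6 (adjusted p = 0.263). These 3 did not pass. LOXL2, which cross-links collagen, passed at 4.503 and 17.9 CPM against 20.5 to 126 CPM, median 62.9 (log2 change -2.56 ± 0.59, adjusted p = 0.0188). PLEC, the cytoskeletal linker plectin, was at 2.02 and 36.9 CPM against 60.6 to 198 CPM, median 132 (log2 change -2.74 ± 0.65, adjusted p = 0.0208). CYP1B1, a cytochrome that hydroxylates estradiol, was at 0.457 and 0.296 CPM against 3.84 to 295 CPM, median 37.1 (log2 change -7.44 ± 1.95, adjusted p = 0.0331). LOXL2, PLEC and CYP1B1 belong to none of the lists. Their calls were lost on library totals, with limma voom and without TWSD 2. That of CYP1B1 was lost without a filter on low counts and without TWSD 3 too.

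On the higher side, 11 of the 12 genes with the smallest p are described here, several of them RNA-processing and chromatin factors, and 6 of the 11 lay above all 18 in both libraries. SET (ENSMMUG00000038373), a histone chaperone and inhibitor of protein phosphatase 2A, was at 1016 CPM in TWSD 2 and 416 CPM in TWSD 3, against 154 to 326 CPM in the 18, median 242, a log2 change of 1.55 ± 0.24 (adjusted p = 0.00477). CNOT8, a deadenylase that shortens poly(A) tails, was at 285 CPM in TWSD 2 and 171 CPM in TWSD 3, against 83.3 to 126 CPM in the 18, median 115, 1.04 ± 0.17 on the log2 scale (adjusted p = 0.00539). WDR47, a microtubule-associated protein, was at 122 CPM in TWSD 2 and 61.1 CPM in TWSD 3, against 11.9 to 43.6 CPM in the 18, median 20.5, 2.01 ± 0.34 on the log2 scale. In each of these 3 genes the T and WSD libraries stayed under both combined libraries, and TWSD 2 was the higher of the pair.

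The others of the 6 were POLR1C, shared by RNA polymerases I and III (542 and 154 CPM against 67.3 to 143 CPM, median 115), ILF2, a double-stranded RNA-binding factor (1461 and 547 against 354 to 523 CPM, median 435), and INTS7 of the Integrator complex (408 and 156 against 92.97 to 154 CPM, median 111). In these 3, TWSD 3 exceeded the highest of the 18 by a small margin. The remaining 5 had TWSD 3 inside the range: EXOSC8, a subunit of the RNA exosome (913 and 179 CPM against 118 to 226 CPM, median 159), the nucleosome-binding HMGN2 (1663 and 399 against 245 to 469.6 CPM, median 344), CCSAP, STAMBP and the peroxiredoxin PRDX2. Over the 11, log2 changes ran from 1.04 to 2.32, with adjusted p between 0.00477 and 0.00561. All 11 passed against T and against WSD separately, which is no separate support, as the pooled test of the same libraries picked them. Without TWSD 2 the changes were 0.15 to 1.41 and none passed (smallest adjusted p 0.876).

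Over the 198 genes with both libraries above the 18, TWSD 3 exceeded the highest of the 18 by a median factor of 1.101 and TWSD 2 by 1.52, and 79 of the 198 passed. The 6 described here were chosen after their values were seen. LARS1, the cytosolic leucyl-tRNA synthetase, was at 749 CPM in TWSD 2 and 598 CPM in TWSD 3, against 249.8 to 434 CPM in the 18, median 342 (log2 change 0.95 ± 0.18, adjusted p = 0.00975). MTO1, which modifies mitochondrial tRNAs, was at 311 CPM in TWSD 2 and 189 CPM in TWSD 3, against 59.7 to 130.2 CPM in the 18, median 98.8 (log2 change 1.31 ± 0.23, adjusted p = 0.00672). EIF4A1, the RNA helicase of translation initiation, was at 2376 and 1554 CPM against 728 to 1342 CPM, median 1020.2. ZRANB3, which remodels stalled forks, had nearly equal levels in the 2 libraries, 67.6 and 59.4 CPM against 16.6 to 39.4 CPM, median 28.8 (log2 change 1.18 ± 0.27, adjusted p = 0.0177). DTL, an adaptor of a ubiquitin ligase at replicating DNA, was at 363 and 176 CPM against 53.2 to 153 CPM, median 108, and PARP2, a sensor of DNA strand breaks, at 480.1 and 237 against 109.7 to 225 CPM, median 169.9. EIF4A1, DTL and PARP2 passed (adjusted p = 0.0155, 0.0119 and 0.0117).

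In the DNA repair list TWSD 3 lay above the 18 at 5 of 33 genes, where it did so at 4.94% of all tested genes. On library totals it lay above at 6, against 651 of all 13249 tested genes. PRKDC, the catalytic subunit of DNA-dependent protein kinase, was at 362 CPM in TWSD 2 and 312 CPM in TWSD 3, against 141 to 278 CPM in the 18, median 204 (log2 change 0.76 ± 0.19, adjusted p = 0.0276). MRE11, a nuclease at double-strand breaks, was at 206 and 152 CPM against 64.1 to 125 CPM, median 99.9 (log2 change 0.87 ± 0.23, adjusted p = 0.0339). XPC, which detects damage for nucleotide excision, was at 232 and 156 CPM against 48.6 to 139 CPM, median 111 and did not pass (adjusted p = 0.0606). These 3 were the repair genes above the 18 in both. The calls of PRKDC and MRE11 were lost on library totals, without a filter on low counts and with limma voom. Against T and WSD taken separately, PRKDC missed the threshold (edgeR adjusted p = 0.0528 and 0.0540). MRE11 passed against T (edgeR adjusted p = 0.0211) and missed it against WSD (0.0971). In all, 6 of the 33 repair genes were called higher and 0 lower, against 3.67% and 0.913% of all tested genes. XRCC5 and FANCI were among the 6, with TWSD 3 inside the range. TWSD 2 lay above the 18 at 10 repair genes and below at 10, so the list did not move one way in it, and the median log2 change was 0.22 (0.25 without TWSD 2).

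Of the 38 tested cell cycle genes, 2 were called higher and 0 lower, a share near the 3.67% called higher among all tested genes. MCM6, of the replicative helicase, and CCNE1, cyclin E1, passed as higher. MCM4, a subunit of that helicase, and CDC6, which loads it, lay above the 18 in both libraries without passing: MCM4 at 929 and 914 CPM against 459 to 890.0 CPM, median 706 (adjusted p = 0.221), and CDC6 at 249 and 227 against 96.98 to 225 CPM, median 149 (adjusted p = 0.125). BUB1B, a kinase of the spindle checkpoint, did the same at 185 and 141 CPM against 71.1 to 139 CPM, median 111 (adjusted p = 0.0805). In TWSD 2, 19 of the 38 lay above the 18, and in TWSD 3 4, against 22.4% and 4.94% of all tested genes. On library totals, TWSD 2 lay above at 7 and TWSD 3 at 7, against 1827 and 651 of all 13249 tested genes.

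Nuclear transport and splicing each had 6 genes called higher, and 1 member of each lay above the 18 in both libraries. Among all tested genes 3.67% were called higher and 1.49% lay above in both, so that 1 member is near the share of all genes. TWSD 2 lay above the 18 at 16 and below at 8 of 36 transport genes, and at 21 and 5 of 39 splicing genes. Its shares over all tested genes were 22.4% above and 23.1% below. NUP107, a scaffold protein of the nuclear pore, was at 396 CPM in TWSD 2 and 235 CPM in TWSD 3, against 89.9 to 219.7 CPM in the 18, median 167 (log2 change 0.93 ± 0.22, adjusted p = 0.0189). The small nuclear ribonucleoprotein gene SNRPB was at 764 and 765 CPM against 483 to 747 CPM, median 622, a small excess that did not pass (adjusted p = 0.269). The 5 other transport calls were RANBP1, RAN, RANBP2, NUP160 and NUP93, among 36 tested, and the splicing calls were SF3A3, U2AF1, SF3B1, PRPF4, HNRNPC and SRSF7, among 39. In these 11 genes TWSD 3 lay inside the range. Calls close to the threshold were lost when 1 T or WSD library was left out, for NUP160 with 3 of the 18, NUP93 with 4, PRPF4 with 5, HNRNPC with 8 and SRSF7 with 11 (largest adjusted p 0.0599). The median log2 change was 0.23 for transport and 0.33 for splicing, and 0.05 and 0.10 on library totals. CS, the citrate synthase of the TCA cycle, also lay above the 18 in both, at 954 and 980.0 CPM against 392 to 937 CPM, median 816, and did not pass (adjusted p = 0.393).

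Many proteasome and respiratory chain genes were high in TWSD 2, and most lay inside the range in TWSD 3. Other energy and turnover genes went both ways in TWSD 2. Of 37 glycolysis and TCA cycle genes 0 passed, and TWSD 2 lay above the 18 at 15 and below at 6. For 30 autophagy and lysosome genes it lay above at 7 and below at 8. Its shares over all tested genes were 22.4% and 23.1%. The proteasome, which degrades ubiquitin-tagged proteins, had 10 of 35 genes called higher, against 3.67% of all tested genes. This was the largest number of calls in any list, the lists being of unequal size. TWSD 2 lay above the 18 at 27 of the 35, against 22.4% of all tested genes, and TWSD 3 inside the range at 35. On library totals TWSD 2 lay above at 24, against 1827 of all 13249 tested genes. The median log2 change was 0.67, and -0.11 without TWSD 2, against -0.16 and -0.13 over all tested genes. PSMD4, a ubiquitin receptor of the proteasome, was at 1637 CPM in TWSD 2 and 363 CPM in TWSD 3, against 307 to 643 CPM in the 18, median 395 (log2 change 1.34 ± 0.27, adjusted p = 0.0117). PSMA7, of its catalytic core, was at 1308 CPM in TWSD 2 and 399.9 CPM in TWSD 3, against 229 to 535 CPM in the 18, median 397 (log2 change 1.12 ± 0.24, adjusted p = 0.0166). PSMC2, PSMD6, PSMD12 and PSME3 passed as well, at log2 changes of 0.92 to 1.08. For PSMD4 and PSMA7, TWSD 2 was more than 2 times the highest single-treatment library, with TWSD 3 near the median of the 18.

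Nuclear-encoded respiratory chain genes followed the same pattern, with 9 of 49 higher and 0 lower, against 3.67% and 0.913% of all tested genes. In TWSD 2, 34 of the 49 lay above the 18, against 22.4% of all tested genes. On library totals 22 did, against 1827 of all 13249 tested genes. In TWSD 3 0 lay above and 1 below. NDUFA8, of complex I, was at 566 CPM in TWSD 2 and 107 CPM in TWSD 3, against 69.3 to 184 CPM in the 18, median 124 (log2 change 1.39 ± 0.32, adjusted p = 0.0183), and ATP5F1C, of the ATP synthase, at 1488 CPM in TWSD 2 and 482 CPM in TWSD 3, against 386 to 672 CPM in the 18, median 472 (log2 change 1.03 ± 0.23, adjusted p = 0.0177). NDUFA12, NDUFB5 and NDUFS7, other complex I genes, passed at 1.00 to 1.54. The median log2 change of the list was 0.50, -0.18 without TWSD 2. Mitochondrial ribosome and import genes had 2 of 43 higher, MRPL22 and TIMM23, a share near the 3.67% of all tested genes, with TWSD 2 above at 27 and TWSD 3 inside the range at 43. Fatty acid oxidation added ETFB, ETFA and the carnitine carrier SLC25A20 (3 of 25), and antioxidant defence PRDX2, PRDX3 and the glutathione synthetase GSS (3 of 29). Both stand beside the 3.67% called higher among all tested genes. The ETFA call was lost with DESeq2 size factors and when any 1 of 15 of the 18 single-treatment libraries was left out (adjusted p up to 0.0644). The medians of these 2 lists were 0.24 and -0.08, and on library totals -0.05 and -0.26, so the direction of the fatty acid oxidation median turned with the scaling.

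The unfolded protein response calls, 6 of 33 higher and 0 lower, were genes of protein handling in the endoplasmic reticulum. Among all tested genes 3.67% were called higher and 0.913% lower. HSPA5, the chaperone BiP, was at 12945 CPM in TWSD 2 and 2132 CPM in TWSD 3, against 1257 to 5456 CPM in the 18, median 2482 (log2 change 1.48 ± 0.37, adjusted p = 0.0259). PDIA4 and PDIA6, which form disulfide bonds, stood at 4209.6 and 1647 CPM in TWSD 2 and at 1208 and 458 CPM in TWSD 3, inside ranges of 706 to 2004 CPM, median 1019 and 339 to 651 CPM, median 471. MANF, SDF2L1 and DERL2, the last of the machinery that removes misfolded proteins, were the other calls. The MANF call was lost without WSD 8, and that of SDF2L1 without T 4, WSD 8 or WSD 9. The stress transcription factor DDIT3 (CHOP) was inside the range in both libraries, at 41.7 CPM in TWSD 2 and 25.6 CPM in TWSD 3, against 9.77 to 67.6 CPM in the 18, median 18.3, and did not pass (adjusted p = 0.562). Of this list, 17 genes lay above the 18 in TWSD 2 and 1 in TWSD 3, against 22.4% and 4.94% of all tested genes. The median log2 change was 0.53, 0.05 without TWSD 2. Of 68 cytosolic ribosomal protein genes, RPL4 passed. TWSD 2 lay above the 18 at 20 of them and TWSD 3 below at 5, against 22.4% and 3.69% of all tested genes. On library totals TWSD 2 lay above at 7, against 1827 of all 13249 tested genes. Near-identical copies can share reads in this family.

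Over the 40 lists, 963 tested genes counted once, 58 were called higher (6.02%, against 3.67% of all tested genes) and 4 lower (0.415%, against 0.913%). TWSD 3 lay above the 18 at 3.95% of them and below at 2.91%, and TWSD 2 at 28.1% and 22.5%. Higher calls fell in 14 lists and lower calls in 3, while 24 lists had none, among them the 3 blastocyst lineages, steroid synthesis, androgen-responsive genes, imprinted genes, cholesterol, Hippo signalling, junctions, and interferon response. Of the 83 called genes followed through the alternatives, 57 lost the call on library totals, 82 without TWSD 2 and 9 when 1 of certain T or WSD libraries was left out.

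In lists with few calls or none, TWSD 3 left the range at single genes. Of 21 immediate early and heat shock genes 0 passed, and TWSD 3 lay above the 18 at MYC, a driver of growth (130.2 CPM in TWSD 2 and 239 CPM in TWSD 3, against 22.9 to 139.9 CPM in the 18, median 88.9), and at EGR2. Of 11 interferon response genes 0 passed, and TWSD 3 lay below at IRF1 (12.4 CPM in TWSD 2 and 1.59 CPM in TWSD 3, against 3.63 to 26.3 CPM in the 18, median 14.1), a transcription factor of that response, and at IRF9. Among 10 genes of embryonic genome activation it lay above at CCNA1, a cyclin of early embryos and germ cells (0 CPM in TWSD 2 and 29.1 CPM in TWSD 3, against 0.242 to 20.7 CPM in the 18, median 4.52), and at RFPL4A. Of 30 autophagy and lysosome genes BECN1 and ATG3 were called higher, and of 31 chromatin genes the histone deacetylase HDAC1, at 609 CPM in TWSD 2 and 442 CPM in TWSD 3, against 234 to 447 CPM in the 18, median 327 (log2 change 0.71 ± 0.20, adjusted p = 0.04098). TWSD 3 was inside the range at these 3, and both shares are near the 3.67% of all tested genes. The HDAC1 call was lost when any 1 of 11 of the 18 was left out. For basement membrane and matrix genes the median log2 change was -1.45 (-0.76 without TWSD 2) over 20 genes with 0 calls. TWSD 2 lay below the 18 at 9 and TWSD 3 at 1, LAMB2, against 23.1% and 3.69% of all tested genes.

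Where a list had no call, the 2 members with the smallest p were looked at, and several stood high in TWSD 2 alone. PLIN2, which coats lipid droplets, was at 752 CPM in TWSD 2 and 218 CPM in TWSD 3, against 175 to 359 CPM in the 18, median 226 (adjusted p = 0.0525). GRB10, an imprinted adaptor that dampens insulin signalling, was at 789 CPM in TWSD 2 and 354 CPM in TWSD 3, against 277 to 452 CPM in the 18, median 328 (adjusted p = 0.0594). SLC2A3, a glucose carrier of embryos, was at 7500.3 CPM in TWSD 2 and 3292 CPM in TWSD 3, against 1984 to 4043 CPM in the 18, median 3275 (adjusted p = 0.0629). In these 3 genes TWSD 3 lay inside the range. The same positions were seen for SUCLA2 of the TCA cycle, the pluripotency factor ZFP42, the egg gene OOEP, the polarity gene PARD3, the collagen hydroxylase P4HA1 and ZNF280A, with adjusted p from 0.0602 to 0.148. GATA6, a primitive endoderm factor (49.2 CPM in TWSD 2 and 135 CPM in TWSD 3, against 92.4 to 629.7 CPM in the 18, median 207; adjusted p = 0.1497), and CLDN6, a tight junction protein (182 CPM in TWSD 2 and 530.1 CPM in TWSD 3, against 457 to 1126 CPM in the 18, median 582; adjusted p = 0.159), were below the range in TWSD 2 and inside it in TWSD 3.

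**Figure D4:**
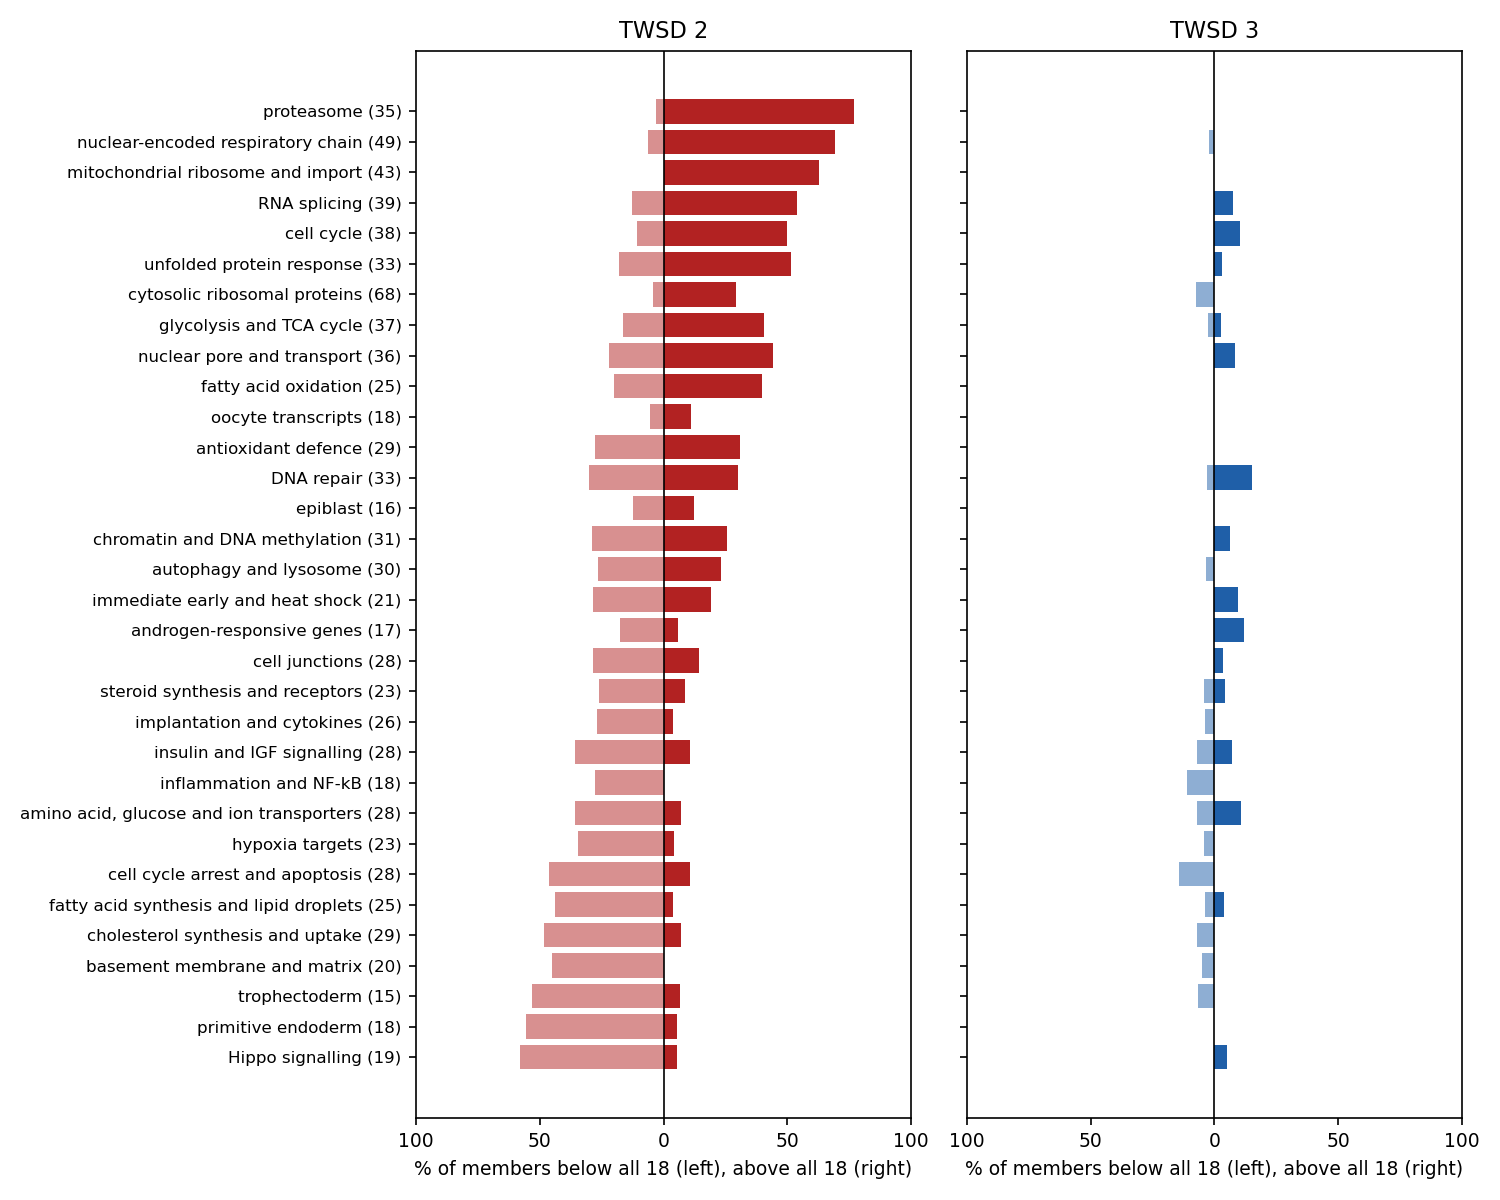
Share of each list's tested genes (number in brackets) below all 18 single-treatment libraries (left of 0) or above all 18 (right of 0), in percent, for TWSD 2 (left panel) and TWSD 3 (right panel), for lists with at least 15 tested genes. TWSD 2 reaches 27 of 35 proteasome genes on the high side, and TWSD 3 has no list with more than 5 genes on either side. Among all tested genes TWSD 2 lay below at 23.1% and above at 22.4%, TWSD 3 at 3.69% and 4.94%.

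In TWSD 3, 1 of the tested genes of the 3 blastocyst lineages lay outside the 18, while TWSD 2 lay below them at 8 of 15 trophectoderm, 10 of 18 primitive endoderm and 2 of 16 epiblast genes. Among all tested genes, TWSD 3 lay outside the 18 at 8.63% and TWSD 2 below them at 23.1%. The epiblast genes POU5F1 and NANOG lay inside the range in both libraries: POU5F1 at 449 CPM in TWSD 2 and 417 CPM in TWSD 3, against 243 to 984 CPM in the 18, median 562, and NANOG at 82.03 CPM in TWSD 2 and 128 CPM in TWSD 3, against 41.7 to 171 CPM in the 18, median 100.2. So did the trophectoderm keratin KRT18, at 4384 CPM in TWSD 2 and 5044 CPM in TWSD 3, against 2134 to 16330.0 CPM in the 18, median 5969, and the trophectoderm factor GATA3, at 105 CPM in TWSD 2 and 256 CPM in TWSD 3, against 91.2 to 878 CPM in the 18, median 189. CDX2, a master factor of trophectoderm, was just below the range in TWSD 2 and inside it in TWSD 3 (29.8 and 176 CPM against 33.9 to 296 CPM, median 97.4). None of these passed. SOX2 and HBB were not matched by symbol.

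Of the 3 defining genes of the primitive endoderm, SOX17 and GATA4 were nearly missing from TWSD 2 and PDGFRA was not. SOX17, a factor that specifies this lineage, was at 0.196 CPM in TWSD 2 and 102 CPM in TWSD 3, against 18.9 to 237 CPM in the 18, median 72.1. GATA4, another such factor, was at 0.457 CPM in TWSD 2 and 56.9 CPM in TWSD 3, against 10.05 to 103 CPM in the 18, median 43.3. PDGFRA, its surface receptor, was at 56.97 CPM in TWSD 2 and 132 CPM in TWSD 3, against 98.8 to 327 CPM in the 18, median 146. TWSD 2 lay below every single-treatment library in all 3, by the least in PDGFRA, and TWSD 3 lay inside the range in all 3. The endoderm factor HNF4A (1.697 CPM in TWSD 2, 53.1 in TWSD 3, 9.400 to 59.04 CPM, median 35.7 in the 18) and the basement membrane collagen COL4A1 (0.261, 92.9, 4.35 to 291 CPM, median 80.2) did the same. HNF4A and COL4A1 were chosen after their values were seen. TWSD 2 was below the 18 at 10 of the 18 tested primitive endoderm genes, against 23.1% of all tested genes, inside their range at 7 and above it at 1. TWSD 3 was inside their range at 18. The summed level of the list was 1632 CPM in TWSD 2 and 3997 CPM in TWSD 3, against 1339 to 8067 CPM in the 18 (median 3656), so the TWSD 2 sum stayed inside the range. None of the 18 genes passed, and the median log2 change was -0.65 with both libraries and 0.08 without TWSD 2. The part of these low markers in the other results of TWSD 2 was not tested.

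**Figure D5:**
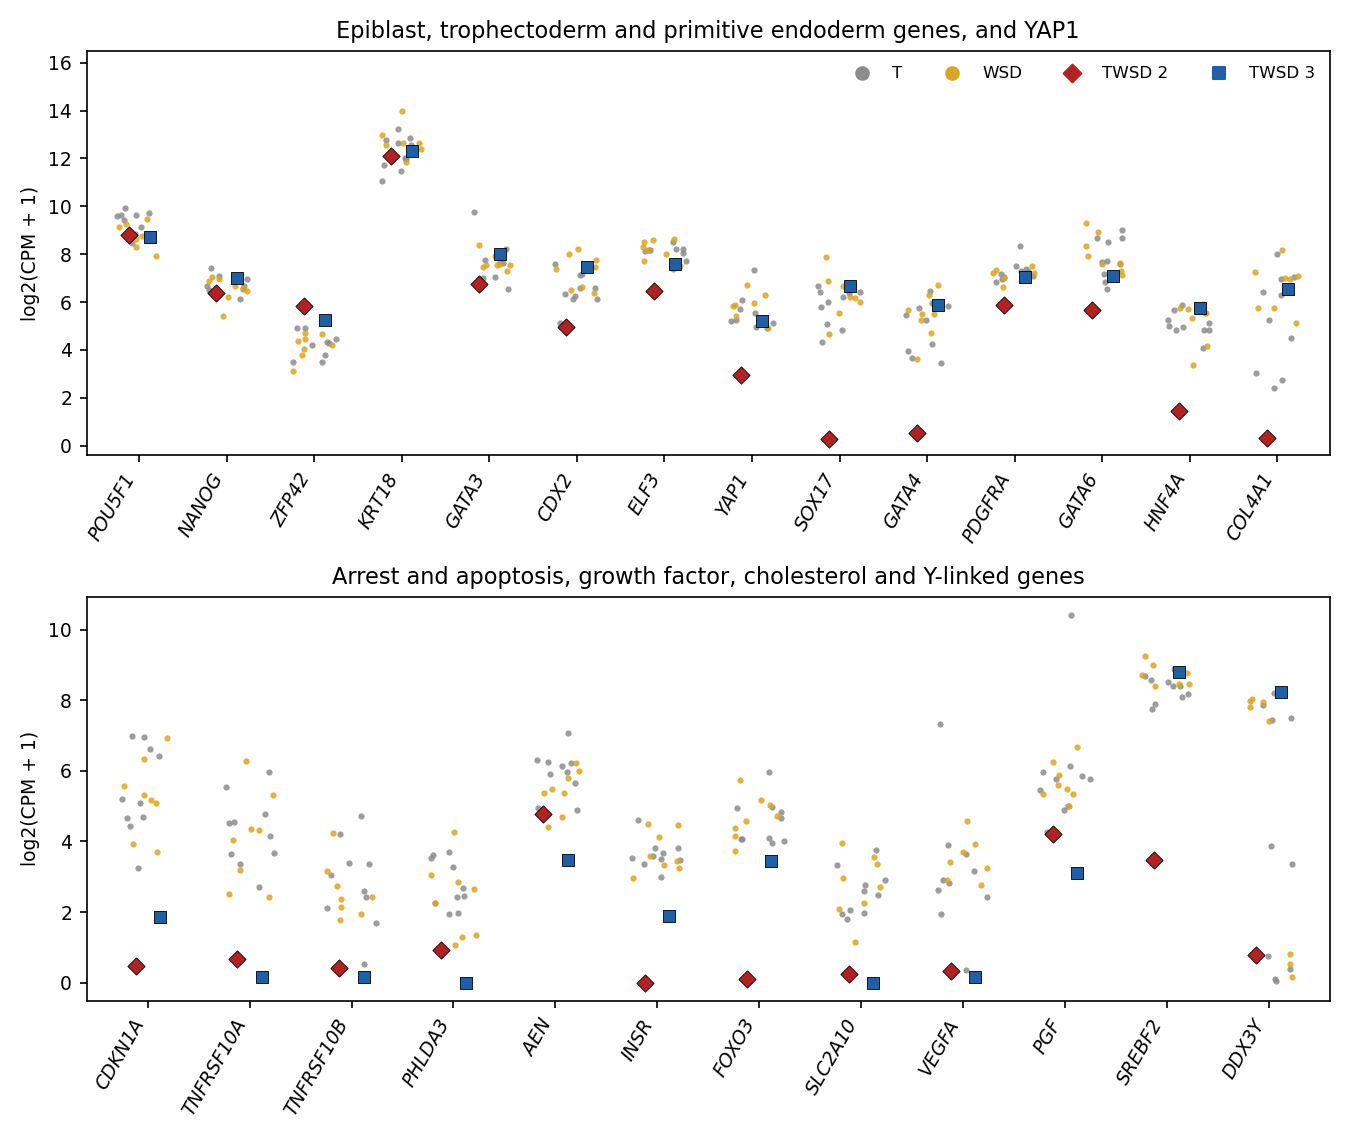
Levels as log2(CPM + 1) (y axis) of lineage genes and YAP1 (top) and of arrest and apoptosis, growth factor, cholesterol and Y-linked genes (bottom), with T (grey) and WSD (yellow) libraries as small points, TWSD 2 as a red diamond and TWSD 3 as a blue square. TWSD 2 lies close to 0 for SOX17, GATA4 and COL4A1, where TWSD 3 lies among the 18, and both lie low for CDKN1A, TNFRSF10A, TNFRSF10B and SLC2A10.

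Trophectoderm, Hippo and cholesterol genes split between the libraries in the same manner. The counts below stand beside 23.1% of all tested genes below the 18 in TWSD 2 and 3.69% in TWSD 3. TWSD 2 lay below the 18 at 8 of 15 trophectoderm genes and TWSD 3 at 1, which was SLC7A2, an arginine transporter below the 18 in both (5.09 CPM in TWSD 2 and 16.1 CPM in TWSD 3, against 29.5 to 369.5 CPM in the 18, median 53.96; adjusted p = 0.0606). ELF3, an epithelial factor, was at 86.6 CPM in TWSD 2 and 194 CPM in TWSD 3 against 164 to 399.6 CPM, median 287 (adjusted p = 0.0805). In the Hippo pathway, which reads cell position and divides trophectoderm from inner cells, TWSD 2 lay below at 11 of 19 genes, with the effector YAP1 at 6.72 CPM (36.4 in TWSD 3, 28.96 to 159 CPM, median 43.6 in the 18) and its partner TEAD1 at 0.131 (19.95, 11.9 to 34.3 CPM, median 25.6). For cholesterol synthesis and uptake it lay below at 14 of 29 and TWSD 3 at 2. SREBF2, the master factor of that pathway, was at 10.2 CPM in TWSD 2 and 442 CPM in TWSD 3, against 215 to 611 CPM in the 18, median 359. TWSD 2 was thus below the lowest of the 18 and TWSD 3 inside their range. No member of the 3 lists passed.

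No gene of the hormone-related lists was called. Of 17 androgen-responsive genes 0 passed, with a median log2 change of -0.14. TWSD 3 lay above the 18 at 2 of them, the prostate gene SLC45A3 (0 CPM in TWSD 2 and 28.04 CPM in TWSD 3, against 0 to 23.4 CPM in the 18, median 4.68) and the kinase gene CAMKK2 (0.587 CPM in TWSD 2 and 18.4 CPM in TWSD 3, against 0.0494 to 14.6 CPM in the 18, median 6.17). FKBP5, a classic androgen and glucocorticoid target, was at 174 CPM in TWSD 2 and 78.4 CPM in TWSD 3, against 20.4 to 104 CPM in the 18, median 53.2 (adjusted p = 0.0889), and the glucocorticoid target TSC22D3 had 3 reads in all in the 2 libraries, inside a range that began at 0.0275 CPM (median 2.69; adjusted p = 0.152). Of 23 genes of steroid synthesis and receptors 0 passed. STAR, which delivers cholesterol to mitochondria, was above the 18 in TWSD 2 and at their median in TWSD 3 (103 CPM in TWSD 2 and 41.7 CPM in TWSD 3, against 33.5 to 54.7 CPM in the 18, median 41.6; adjusted p = 0.0789). LIFR, a receptor for the implantation cytokine LIF, had 2 reads in TWSD 3 and none in TWSD 2 against 0 to 20.2 CPM, median 4.76, so both lay inside a range that begins at 0 (adjusted p = 0.0519).

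At some genes the 2 combined libraries lay on opposite sides of the 18. SLC1A5, the main glutamine transporter, was at 0.326 CPM in TWSD 2 and 302 CPM in TWSD 3, against 40.8 to 160.5 CPM in the 18, median 72.03. UHRF1, which keeps DNA methylation through cell division, was at 16.6 CPM in TWSD 2 and 192 CPM in TWSD 3, against 22.97 to 149 CPM in the 18, median 60.6. SLC1A1, another amino acid transporter, was at 0.587 CPM in TWSD 2 and 32.3 CPM in TWSD 3, against 2.76 to 27.5 CPM in the 18, median 10.6. The kinase LATS1 of the Hippo pathway (0.131 and 31.7 CPM against 3.74 to 25.8 CPM, median 14.1), PIK3R1, the regulatory subunit of PI3 kinase (3.13 and 54.4 against 4.801 to 50.5 CPM, median 32.7), and RPTOR, which gives mTOR its substrates (1.44 and 47.4 against 2.83 to 40.9 CPM, median 21.2), did likewise. In these 6 TWSD 2 lay below and TWSD 3 above. The reverse held for MDH1, cytosolic malate dehydrogenase (1258 and 371 CPM against 386 to 696 CPM, median 425), and for INSIG2, a brake on cholesterol synthesis (74.98 and 7.94 against 8.28 to 35.6 CPM, median 16.2). A mean over the 2 libraries describes neither for such genes, and none of the 8 passed.

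Y-linked genes also separated the libraries. Their summed level was 2.22 CPM in TWSD 2 and 846 CPM in TWSD 3. Of the 18, 7 lay under 10 CPM (4 T and 3 WSD, highest 1.80) and 11 above. Of these 11, T 4 at 24.8 CPM and T 11 at 64.4 CPM lay far under the rest, which held 693 to 868 CPM. DDX3Y, a Y-linked RNA helicase, was at 0.718 CPM in TWSD 2 and 299 CPM in TWSD 3, against 0.0381 to 295 CPM in the 18, median 90.8, so TWSD 3 was just above the highest of the 18, and KDM5D, a Y-linked histone demethylase, at 0.131 CPM in TWSD 2 and 65.1 CPM in TWSD 3, against 0 to 53.1 CPM in the 18, median 3.49. By the sum, TWSD 2 thus lay near the libraries under 10 CPM and TWSD 3 among the highest, with T 4 and T 11 between the 2 kinds. The part of embryo sex in the other results was not tested. Y-linked genes have near-identical X copies that can share reads.

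Markers of cells that could be carried along differed between the combined libraries. FSHR and FOXL2 of granulosa cells, PRM1, TNP1 and AKAP4 of sperm and HBA1 of blood were at 0 in both. AMH was at 0 in TWSD 2 and 3.104 CPM in TWSD 3, above the 0.349 CPM of the highest single-treatment library, and the leukocyte gene PTPRC at 0 and 0.296 CPM against 0 to 1.92. Summed levels of the cumulus and granulosa list were 276 CPM in TWSD 2 and 353 CPM in TWSD 3, against 78.9 to 959 CPM in the 18 (median 323), and those of the sperm list were 6.003 CPM in TWSD 2 and 12.2 CPM in TWSD 3, against 2.47 to 12.2 CPM in the 18 (median 7.06). Sums of the blood list were 2.41 CPM in TWSD 2 and 14.7 CPM in TWSD 3, against 6.45 to 29.1 CPM in the 18 (median 12.5). All 3 sums were above the median of the 18 in TWSD 3 and under it in TWSD 2, and the sperm sum of TWSD 3 slightly exceeded the highest of the 18. Egg transcripts summed to 21270.3 CPM in TWSD 2 and 16359 CPM in TWSD 3, against 6979 to 24968 CPM in the 18 (median 15113), inside the range, with the egg growth factor GDF9 at 69.3 CPM in TWSD 2 and 11.97 CPM in TWSD 3 against 0.0494 to 102 CPM, median 4.47, and BMP15 at 0 in both against 0 to 31.8 CPM. Genes of syncytiotrophoblast, the fused placental layer, summed to 134 CPM in TWSD 2 and 90.9 CPM in TWSD 3, against 121 to 4352 CPM in the 18 (median 193), the highest value being in T 1, and the hormone gene CGA was at 0.326 and 0.111 CPM against 0.05502 to 1008. The part of these cells in the results was not tested.

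Taken against each single treatment alone, the combined treatment differed from T at 268 higher (2.02%) and 69 lower (0.521%) genes and from WSD at 312 higher (2.35%) and 76 lower (0.574%), in a 3-group edgeR fit of the same 20 libraries. The 2 comparisons share the 2 combined libraries, and RELA, SET and CDKN1A, given next, were picked by the pooled test of the same libraries. RELA was at 24.8 ± 6.53 CPM (SD, n = 10) in T and 30.1 ± 6.33 CPM (n = 8) in WSD. SET was at 224 ± 46.3 CPM in T and 271 ± 52.3 CPM in WSD, and CDKN1A at 57.8 ± 44.97 and 47.7 ± 36.6 CPM. For RELA and CDKN1A the T and WSD means differed by less than the SD within either group. CDKN1A changed by -5.22 ± 1.23 on the log2 scale against T (adjusted p = 0.0344) and by -4.94 ± 1.22 against WSD (adjusted p = 0.0336). Inside the pooled group, edgeR called 0 genes (0%) between WSD and T, with 388 at an unadjusted p under 0.05, and DESeq2 called 5 higher and 2 lower. Counts against a single group moved by over 1.5 times when single libraries were left out. Leaving out T 3, T 4, T 5, T 7, T 8, T 11, WSD 8, WSD 9 or WSD 10 gave 45 to 151 genes above T, and leaving out T 3, T 4, T 5, T 7, T 8, T 11, WSD 3, WSD 8, WSD 9 or WSD 10 gave 12 to 45 below T. Leaving out T 3, T 4, T 7, WSD 1, WSD 3, WSD 7, WSD 9 or WSD 10 gave 66 to 201 above WSD, and leaving out T 4, WSD 1, WSD 3, WSD 9 or WSD 10 gave 19 to 50 below WSD. Without TWSD 2 the counts were 0 above and 1 below in each, and without TWSD 3 they were 1581 and 2456 for T and 1634 and 2504 for WSD.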

How the data were processed

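Total RNA libraries of rhesus blastocysts were compared as 2 TWSD against 18 pooled T and WSD libraries, grouped by title and treatment label. The values are whole-number read counts per gene as deposited by the authors. Per the submitters' processing notes, reads were handled with FastQC 0.11.8, Trimmomatic 0.39 and STAR 2.7.0 on Mmul_10, and for the counter, annotation and strand setting nothing is stated (not given in the sources used here). Overlapping, antisense and near-copy genes may therefore share reads. Symbols were matched to 24173 of 35395 gene IDs.

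The 13249 genes that reached 1 CPM in 5 or more of the 20 libraries (12097 with a symbol) were tested with edgeR 4.0.16 (R 4.3.3), TMM factors and a robust quasi-likelihood test, with adjusted p at or under 0.05 as the threshold. Separate T and WSD comparisons used a 3-group fit. The SE printed with a log2 change was worked back from the test, as the change over the square root of its F statistic. It does not show the spread between the 2 TWSD libraries. The estimated biological coefficient of variation was 0.788. The log2 CPM for correlations used a prior count of 2. Genes at 0 in both TWSD libraries got a bound from a floor of 3 counts over the group, with 95% exact Poisson intervals for 1 to 3 counts, both covering counting error only. List medians were the same to 2 decimals with such genes at their bound. DESeq2 1.42.0, limma voom 3.58.1, other scalings and filters, and leaving out each library were tried as alternatives. On simulated counts of 13249 genes, 51 of 100 genes changed 4-fold and 84 of 100 changed 16-fold were recovered, with 2 false among 137 calls. These rates belong to the simulated counts alone, and whether they hold for the real calls was not tested. In the data, TWSD 2 lay outside the range of the T and WSD libraries at 45.5% of tested genes. It had a TMM factor of 0.752 and correlated with TWSD 3 at 0.758. No pair of libraries agreed within sampling noise: the smallest chi-square per gene over 190 pairs was 65.5.

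The libraries compared and the 40 gene lists were chosen with earlier results of these data known. Named genes are up to 12 higher and 12 lower with a symbol and the smallest p, up to 6 passing members of each list or, where none passed, the 2 with the smallest p, and 11 markers. All other named genes were chosen after their values were seen. Some genes that these rules name are not reported here. No control library was used.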

Additional observations from a re-analysis of the deposited data

Results flagged for a closer look

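A library was set apart where its gap to the nearest other library of its group, over the group's range, was above Dixon's 95% critical value. This was checked in the 10 T and the 8 WSD libraries for 163 measures, 326 groups in all, and chance sets apart about 1 in 20 groups. It was met 32 times, 18 of them by T 1. No TWSD library could be checked this way, with 2 in the group. T 1 correlated with the other libraries at 0.791, against 0.848 to 0.8803 in the other T libraries. Higher in T 1 than in the other T libraries were INSR (23.3 CPM, others 7.03 to 13.2), SLC7A2 (369.5 CPM, others 33.9 to 64.4) and VEGFA (159.5 CPM, others 0.285 to 14.1). T 1 also stood high at FOXO3 (61.9 CPM, others 14.5 to 30.3), SLC22A18 (22.2 CPM, others 0 to 1.88) and PDGFRA (327 CPM, others 115 to 178). A high value in T 1 was seen at YAP1 (159 CPM, others 29.5 to 66.9), CYP19A1 (78.5 CPM, others 0 to 2.33) and PGF (1363 CPM, others 18.2 to 69.5). T 1 was likewise high at SFRP2 (25.7 CPM, others 0 to 2.85), ENSMMUG00000028689 (1861 CPM, others 1.03 to 2.88) and CGA (1008 CPM, others 0.0913 to 4.34). Also high in T 1 was GATA3 (878 CPM, others 91.2 to 298). T 1 was lower than the other T libraries at NUP107 (89.9 CPM, others 129 to 195), SUCLA2 (139 CPM, others 295 to 389.7) and CS (392 CPM, others 698 to 902). It was low as well at PIK3R1 (4.801 CPM, others 20.4 to 50.5). These T 1 values can set an end of the range of the 18 for the genes concerned. Without T 1, TWSD 2 lay above the remaining 17 at 3036 genes and below at 3178, and TWSD 3 at 729 and 556. T 10 stood apart from its group at MTO1 (59.7 CPM, others 91.3 to 130.2). WSD 6 stood apart from its group at PSMD4 (643 CPM, others 323 to 423) and DERL2 (196 CPM, others 101 to 134). WSD 7 stood apart from its group at BECN1 (96.02 CPM, others 128 to 158). T 8 stood apart from its group at PSMD12 (194 CPM, others 309 to 457). WSD 3 stood apart from its group at PSME3 (282 CPM, others 444 to 607), NUP160 (130.0 CPM, others 198 to 265) and SFRP2 (3.66 CPM, others 0 to 0.3301). WSD 4 stood apart from its group at SDF2L1 (91.1 CPM, others 25.6 to 46.4) and CLDN6 (1126 CPM, others 457 to 694). WSD 9 stood apart from its group at VEGFA (0.275 CPM, others 5.75 to 22.9). T 7 stood apart from its group at CLDN6 (851 CPM, others 463 to 620.1). WSD 1 stood apart from its group at SLC22A18 (4.41 CPM, others 0.11 to 1.100) and GAPDHS (0.843 CPM, others 3.91 to 10.8).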

How the results depend on the processing

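No paired analysis was possible because the 2 TWSD libraries share 1 replicate number, 3, with the T and with the WSD libraries, and no label says that a number marks a shared female or day. On library totals the counts above and below the pooled libraries fell to 27 and 23, those for T to 2 and 6, and those for WSD to 7 and 7, and TWSD 2 lay above the 18 at 1827 genes. Without a filter on low counts the pooled lower count was 58, the T counts 125 and 20 and the WSD counts 114 and 25, and TWSD 3 lay above the 18 at 1127 genes. DESeq2's Wald test gave 616 higher and 874 lower in the pooled comparison, 487 and 722 for T, 544 and 712 for WSD, and 5 and 2 between WSD and T. limma voom gave 0 in each comparison with the combined group. Leaving out each library in turn, the pooled counts ran from 0 to 1715 higher and 1 to 2538 lower, those for T from 0 to 1581 and 1 to 2456, and those for WSD from 0 to 1634 and 1 to 2504, with both ends set by TWSD 2 and TWSD 3. Leaving out a T or WSD library kept the sum of the pooled calls between 456 and 652. The cause was not tested. With at least 10 counts or at least 1 CPM as detection, the difference in genes detected, combined minus single, was -2298 and -1983 (exact permutation p = 0.0263 for each). Without TWSD 3 or TWSD 2, the difference in total counts was -987443 or 5340698, that in the share of the top 100 genes 2.47 or -1.49 percentage points, and that in mean correlation -0.0954 or 0.000639. Of the named genes, these called higher changed sign without TWSD 2, and their log2 changes over all libraries left out had these ranges. The ranges were MRPL22 -0.15 to 2.49, PSMD4 -0.14 to 2.05, DERL2 -0.15 to 2.05, ETFB -0.00996 to 1.92, PDIA6 -0.0326 to 1.83, ATP5F1C -0.0209 to 1.62 and SF3A3 -0.036 to 1.57. Next were NDUFA8 -0.28 to 2.14, PSMD6 -0.0615 to 1.67, TIMM23 -0.0946 to 1.74, RAN -0.00655 to 1.47, ATG3 -0.46 to 1.94, GSS -0.57 to 2.43 and HSPA5 -0.37 to 2.25. Others were NDUFS7 -0.0441 to 1.60, CCNE1 -0.0285 to 1.87, SLC25A20 -0.0728 to 2.08, MANF -0.33 to 2.16, SDF2L1 -0.52 to 2.25 and ETFA -0.0929 to 1.47. Genes that had not passed and changed sign without TWSD 2 were these. The first were PLIN2 -0.21 to 1.60, GRB10 -0.000424 to 1.17, MDH1 -0.35 to 1.43, STAR -0.0417 to 1.29, INSIG2 -1.22 to 2.04, SREBF2 -5.21 to 0.21 and GATA4 -6.56 to 0.37. Then came HNF4A -4.42 to 0.52, GATA3 -1.12 to 0.14, SOX17 -8.55 to 0.41, CDX2 -2.15 to 0.40, PIK3R1 -3.40 to 0.70 and SPACA1 -6.66 to 0.94. Without TWSD 3, sign changes were seen for ENSMMUG00000028689 -7.18 to 9.93, SLC1A5 -7.98 to 1.83, UHRF1 -2.23 to 1.28, KDM5D -6.75 to 2.14, SLC1A1 -4.44 to 1.30, GAPDHS -0.56 to 0.78 and LATS1 -6.57 to 1.28. And for RPTOR -3.88 to 1.15, UTY -5.48 to 1.50, DDX3Y -7.30 to 1.37 and NANOG -0.34 to 0.29. The upper end for ENSMMUG00000028689 is the value without T 1. With limma voom the log2 change was -1.02 for SLC1A5, -0.16 for SLC1A1, -0.86 for LATS1, -0.30 for RPTOR and 1.18 for SPACA1, each opposite in sign. NANOG was at -0.0042 with DESeq2 size factors, -0.14 on library totals and -0.00369 in DESeq2, and SPACA1 at 0.0131 in the 3-group fit. Where a gene has no read in a library, its fitted change is no bound. The medians of 5 lists changed sign on library totals: fatty acid oxidation, immediate early genes, ribosomal proteins, autophagy and chromatin. With 2 libraries in the combined group, a gene's error rests mostly on the spread within the 18, and genes under about 1 CPM rest on few reads.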

Other observations

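Outside the lists, further genes below all 18 in both TWSD libraries and called lower act in cell fate, in control of mRNA and in the cell cycle. NOTCH2, a receptor for signals between neighbouring cells, was at 0 and 0.111 CPM in TWSD 2 and TWSD 3, against 0.146 to 8.82 CPM, median 3.66 in the 18, with 3 reads in all, a ratio of 52.2 with a 95% counting interval of 17.9 to 253 (adjusted p = 0.0383 in edgeR). ZC3H12A, an RNase that degrades inflammatory mRNAs, was at 0.261 and 3.92 CPM in TWSD 2 and TWSD 3, against 4.29 to 24.6 CPM, median 14.96 in the 18 (log2 change -2.80 ± 0.79, adjusted p = 0.0421). E2F7, a repressor of cell cycle genes, was at 0.131 and 1.88 CPM in TWSD 2 and TWSD 3, against 3.16 to 16.3 CPM, median 8.82 in the 18 (adjusted p = 0.0323). In these 3 genes neither TWSD library overlapped the 18. Genes above all 18 in both libraries and called higher included PARG, which removes poly(ADP-ribose), at 307 and 146 CPM in TWSD 2 and TWSD 3, against 50.9 to 143 CPM, median 97.5 in the 18 (adjusted p = 0.0141). RNF168, a ubiquitin ligase at DNA breaks, was at 43.3 and 23.8 CPM in TWSD 2 and TWSD 3, against 5.82 to 21.6 CPM, median 12.00 in the 18 (adjusted p = 0.0231). SUPT16H, of the histone chaperone FACT, was at 834 and 553 CPM in TWSD 2 and TWSD 3, against 283 to 527 CPM, median 391 in the 18 (adjusted p = 0.0231). LTN1, a ligase that clears stalled ribosomes, was at 104 and 120.1 CPM in TWSD 2 and TWSD 3, against 36.4 to 85.4 CPM, median 56.7 in the 18 (adjusted p = 0.0346). All 7 were chosen after their values were seen.

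The gene ENSMMUG00000028689, which has no symbol in the tables used, was at 2629 CPM in TWSD 3 and at 1861 CPM in T 1. It was at 0.718 CPM in TWSD 2 and between 0.439 and 2.88 CPM in the remaining 17 single-treatment libraries. The log2 change was 3.65 ± 2.25 and did not pass (adjusted p = 0.3598 in edgeR). The call turned on single libraries: without T 1 the change was 9.93 and passed (adjusted p = 1.44e-08), and without TWSD 3 it was -7.18 and did not (adjusted p = 0.458). It also passed in the 3-group fit (6.57, adjusted p = 0.0334) and in DESeq2 (9.93, adjusted p = 1.03e-20).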
